A study of Mus musculus with 8 samples.

Results

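The 8 genes described here encode the cytokine LIF (Lif), the receptor chains LIFR (Lifr) and gp130 (Il6st), the kinases JAK1 and JAK2 (Jak1, Jak2), the transcription factor STAT3 (Stat3), its feedback inhibitor SOCS3 (Socs3) and the phosphatase SHP2 (Ptpn11). They were taken by symbol from a table of 38924 genes, each matched 1 line of it, and 7 of the 8 were among the 17698 genes tested. Lif was the exception, because it did not reach the minimum level for testing. RNA sequencing had been carried out on lysates of about 50 mouse embryos per library, all recovered from C57BL/6 females with no genetic alteration named in the labels. Diapaused ICM (3 libraries) is the inner cell mass of blastocysts whose arrest before implantation was induced on day 3.5 by tamoxifen and 0.5 mg of Depo Provera, and which were harvested 5 days later. Epiblast (2 libraries) came from post-implantation embryos at day 6.5. ICM (3 libraries) came from blastocysts at day 3.5. Per the labels' protocols, blastocysts were flushed from superovulated females, antibody and complement were used to lyse their outer trophectoderm, the epiblast was isolated by a different procedure, and the RNA of all libraries was amplified before sequencing. Diapause, the 2 agents and the 5 additional days in the uterus coincide in these libraries, and their contributions cannot be told apart.

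As background, LIF binds LIFR, which pairs with gp130, a receptor chain shared by cytokines of the interleukin-6 family. JAK kinases attached to the receptor tails phosphorylate STAT3, which enters the nucleus and binds DNA, and one of the genes it switches on, Socs3, encodes an inhibitor that docks on gp130 and blocks the kinases. SHP2 binds the same receptor tails and links them to the Ras-ERK cascade. In mouse embryonic stem cells LIF and STAT3 maintain self-renewal through factors such as Klf4 and Tfcp2l1, and in the mouse embryo this receptor system is known to be required for the epiblast to persist through diapause. Cells of the post-implantation epiblast, in the state called primed, do not depend on LIF.

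The 250 bases upstream of the RefSeq start are shown for the 4 genes whose transcripts differed in the tests below, because these genes moved in the same direction in both comparisons with epiblast. The sequences are RefSeq's, of build GRCm38.p6, and are written 5′ to 3′ on the gene's strand. Capitals mark a match to TTCNNNGAA or TTCNNNNGAA, the spaced palindromes that STAT factors are known to bind, which read the same on both strands.
Socs3, chr11:117969367-117969616, minus strand: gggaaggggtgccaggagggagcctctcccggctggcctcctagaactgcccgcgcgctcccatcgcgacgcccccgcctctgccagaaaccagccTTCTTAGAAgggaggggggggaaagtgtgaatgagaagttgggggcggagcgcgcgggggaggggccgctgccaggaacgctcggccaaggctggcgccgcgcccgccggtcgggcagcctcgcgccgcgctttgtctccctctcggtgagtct
Stat3, chr11:100939541-100939790, minus strand: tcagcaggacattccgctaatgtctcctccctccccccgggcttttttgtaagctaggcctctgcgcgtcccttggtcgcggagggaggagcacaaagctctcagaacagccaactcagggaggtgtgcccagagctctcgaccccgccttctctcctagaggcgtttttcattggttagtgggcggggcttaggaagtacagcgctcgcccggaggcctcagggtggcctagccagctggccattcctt
Lifr, first of 2 listed starts, chr15:7129322-7129571, plus strand: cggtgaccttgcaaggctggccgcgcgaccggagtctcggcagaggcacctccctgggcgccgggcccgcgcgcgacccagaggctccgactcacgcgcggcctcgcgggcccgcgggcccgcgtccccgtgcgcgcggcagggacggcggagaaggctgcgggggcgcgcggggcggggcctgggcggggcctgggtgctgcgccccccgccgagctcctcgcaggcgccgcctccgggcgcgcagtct
Il6st, chr13:112463820-112464069, plus strand: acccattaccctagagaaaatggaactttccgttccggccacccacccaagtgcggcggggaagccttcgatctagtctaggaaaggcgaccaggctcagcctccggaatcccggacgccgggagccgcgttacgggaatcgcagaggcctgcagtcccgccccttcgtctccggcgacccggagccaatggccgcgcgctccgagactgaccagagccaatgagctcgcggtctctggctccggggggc
All 8 genes had a RefSeq promoter, with 9 starts between them, and 1 gene held a match, Socs3, as TTCTTAGAA with its first base at -154 from the start. As a check of the starts, bases downstream of each were sought in GENCODE M21 transcripts of the gene. They were found for Stat3, Il6st and the first Lifr start, but not for Socs3 or the second Lifr start. The position -154 therefore rests on a start that this check did not bear out. Of all 32851 promoters of this length, 7.02% held TTCNNNGAA, 5.85% held TTCNNNNGAA and 12.4% held either. The Lifr stretch printed was 82.4% G and C, that of Socs3 71.6%, that of Il6st 66% and that of Stat3 60.8%, against a median of 52.4% over all promoters. The stretch of the second Lifr start, which is not printed, was 50.8% G and C. These letters describe the windows printed and say nothing on binding in these embryos.

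The values were deposited as adjusted TPM, a transcript abundance relative to the rest of the library. The 8 library sums spanned 720674 to 1179026, and 14634 to 15130 genes reached 1 or more. The read depth of the libraries is unknown. The labelled tissues were compared with their defining markers. The 5 markers of the primed epiblast all rose in epiblast against ICM, with summed levels of 284 to 569 in epiblast and 22.9 to 36.4 in ICM. Outside epiblast, Pou3f1 and T stayed under 1 and Fgf5 reached 1.07 only in ICM replicate 3. These genes therefore entered the test through the group where they are high. Of the 9 markers shared by ICM and early epiblast, 8 fell, with sums of 144 to 165 in epiblast and 1434 to 1665 in ICM. Over all tested genes, 16.7% rose and 13.3% fell in epiblast against ICM. Diapaused ICM had sums of 340 to 358 for these 9 markers. Of them, Gdf3 and Dppa3 fell against ICM, where 5.81% of all tested genes fell. Dppa3 alone carried most of the sum in ICM, and the other 8 markers summed to 289 to 312 in diapaused ICM, 141 to 162 in epiblast and 304 to 447 in ICM.

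Lif itself was low in every library. Its level was 0.304, 0.427 and 0.0789 adjusted TPM in diapaused ICM, 0.267 and 0.0740 in epiblast, and 0.0973, 0.0335 and 0.226 in ICM. The 3 groups overlapped and every value lay under 1, the minimum for testing. Of the 9 other ligands of the interleukin-6 family, 8 also stayed under 1 in every library, among them Il6, Il11, Osm and Cntf, and Ctf1 (cardiotrophin 1) reached 2.28 in epiblast replicate 1. The uterus, a known maternal source of LIF for the blastocyst, was not among the tissues sampled.

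Lifr, which encodes the chain that LIF binds, rose in diapaused ICM. Its level was 27.0, 19.5 and 22.3 adjusted TPM in diapaused ICM, 1.43 and 2.30 in epiblast, and 11.2, 8.53 and 12.0 in ICM. No 2 groups overlapped, with diapaused ICM highest and epiblast lowest. Diapaused ICM averaged 22.9 ± 3.76 and ICM 10.6 ± 1.81 (SD, n = 3 each), a ratio of 2.17 and a log2 fold change of 1.05 ± 0.23 (SE, adjusted p = 0.019, limma). Epiblast averaged 1.87 ± 0.616 (SD, n = 2), and Lifr fell there against ICM by 2.02 ± 0.26 on the log2 scale (adjusted p = 0.00078). Against epiblast, diapaused ICM was higher by 3.06 ± 0.26 on the log2 scale (adjusted p = 9.4e-05), a ratio of means of 12.3. Lifr stood above 81.4% of the tested genes by mean level in diapaused ICM, above 28.5% in epiblast and above 70.8% in ICM.

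Il6st, the shared signalling chain gp130, fell in epiblast and did not pass the test between diapaused ICM and ICM. It measured 47.1, 18.7 and 29.8 adjusted TPM in diapaused ICM, 2.01 and 3.09 in epiblast, and 29.8, 23.8 and 33.3 in ICM. The 3 diapaused libraries spread 2.52-fold and enclosed all 3 ICM libraries, and both epiblast libraries lay far below. The difference of diapaused ICM from ICM was 0.05 ± 0.33 on the log2 scale, with a 95% interval of -0.70 to 0.80 (adjusted p = 0.95, limma). Il6st fell in epiblast against ICM by 3.08 ± 0.37 (adjusted p = 0.00056), and diapaused ICM was higher than epiblast by 3.13 ± 0.37 (adjusted p = 0.00044).

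**Figure D1:**
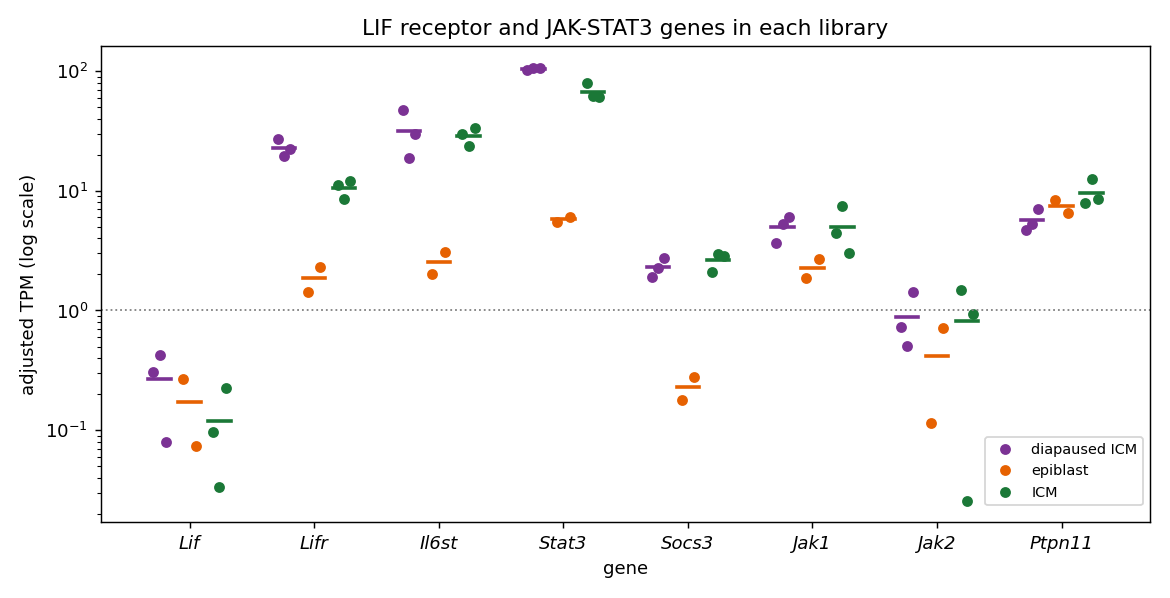
Level of each gene in adjusted TPM (vertical axis, log scale) in every library, with points for libraries, short lines for group means and a dotted line at 1, the minimum level for testing. The epiblast points of Lifr, Il6st, Stat3 and Socs3 lie below all points of diapaused ICM and ICM, while Lif lies under 1 throughout and Ptpn11 shows no such drop.

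Because the 2 receptor chains pair on the cell surface, their levels were set against each other within each library. A ratio of untransformed levels does not depend on the scaling between libraries. With 1 added to each level, as in the differences and permutation tests below, some dependence remains. Lifr amounted to 57.2%, 104.5% and 74.9% of Il6st in diapaused ICM, 71.4% and 74.5% in epiblast, and 37.5%, 35.8% and 36.0% in ICM. All 5 libraries of diapaused ICM and epiblast lay above all 3 of ICM. On the scale of log2((Lifr + 1)/(Il6st + 1)), diapaused ICM exceeded ICM by 1.00 and epiblast exceeded ICM by 1.07, whereas diapaused ICM minus epiblast was -0.07. The exact two-sided permutation p was 0.1 for diapaused ICM against ICM, the smallest that 3 against 3 libraries allows, and 0.2 for epiblast against ICM, the smallest for 2 against 3. Over the 9 comparisons of ratios made, the Benjamini-Hochberg values of these permutation tests were 0.3 each, so neither passed a threshold of 0.05. For diapaused ICM against epiblast the exact permutation p was 0.8.

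Among the kinases, Jak1 was the more abundant. It measured 3.69, 5.32 and 6.01 adjusted TPM in diapaused ICM, 1.88 and 2.68 in epiblast, and 4.41, 7.52 and 3.01 in ICM. Both epiblast libraries were below every other library, but the differences of epiblast from ICM (-0.81 ± 0.34 on the log2 scale, adjusted p = 0.10, limma) and of diapaused ICM from epiblast (0.86 ± 0.34, adjusted p = 0.077) did not pass. Without ICM replicate 3 the difference of epiblast from ICM passed at an adjusted p of 0.049, and without ICM replicate 2 that of diapaused ICM from epiblast passed at 0.040. Jak2 was low in every group, at 0.724, 0.506 and 1.44 in diapaused ICM, 0.114 and 0.712 in epiblast, and 1.50, 0.0258 and 0.933 in ICM. Its groups overlapped and no comparison passed (adjusted p of 0.89 for diapaused ICM against ICM, 0.63 for epiblast against ICM and 0.47 for diapaused ICM against epiblast).

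Stat3, the transcription factor at the end of the cascade, was the most abundant of the 8 transcripts in diapaused ICM and in ICM. It measured 101.4, 107.1 and 107.0 adjusted TPM in diapaused ICM, 5.50 and 6.07 in epiblast, and 79.0, 62.5 and 61.2 in ICM. The groups did not overlap, and the 3 diapaused libraries were within 1.06-fold of each other. Diapaused ICM averaged 105 ± 3.26 and ICM 67.6 ± 9.97 (SD, n = 3 each). The difference of 0.64 ± 0.20 on the log2 scale, with a 95% interval of 0.19 to 1.09, did not pass the threshold (adjusted p = 0.068, limma). Stat3 fell to 5.79 ± 0.405 in epiblast (SD, n = 2), by 3.33 ± 0.22 on the log2 scale against ICM (adjusted p = 2.5e-05), and only 0.921% of the tested genes had a lower fold change in that comparison. Diapaused ICM was higher than epiblast by 3.97 ± 0.22 (adjusted p = 1.5e-05), and 0.441% of the tested genes had a higher fold change there. Stat3 made up 60.4% of the summed level of the 8 genes in diapaused ICM, 27.9% in epiblast and 53.9% in ICM. In epiblast the largest share, 35.9%, belonged to Ptpn11.

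Socs3, the feedback inhibitor, was measured at low levels. It had 1.89, 2.26 and 2.76 adjusted TPM in diapaused ICM, 0.177 and 0.281 in epiblast, and 2.08, 2.98 and 2.83 in ICM. Diapaused ICM and ICM overlapped, and both epiblast libraries were under 1. Diapaused ICM differed from ICM by -0.14 ± 0.22 on the log2 scale, with a 95% interval of -0.62 to 0.35 (adjusted p = 0.75, limma). Socs3 fell in epiblast against ICM by 1.55 ± 0.24 (adjusted p = 0.0021), and diapaused ICM was higher than epiblast by 1.42 ± 0.24 (adjusted p = 0.0027). At these levels the size of the fold depends on the constant added before taking logarithms, and the epiblast minus ICM value was -3.05 with 0.1 added and -0.54 with 5 added, each past the threshold.

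Set against the factor that is known to induce it, Socs3 was 1.87%, 2.11% and 2.58% of Stat3 in diapaused ICM, 3.23% and 4.62% in epiblast, and 2.63%, 4.77% and 4.62% in ICM. The 3 diapaused libraries were below all 5 others. On the scale of log2((Socs3 + 1)/(Stat3 + 1)), diapaused ICM minus ICM was -0.78, with an exact two-sided permutation p of 0.1, the smallest possible for 3 against 3 libraries. Its Benjamini-Hochberg value over the 9 ratio comparisons was 0.3, so this difference did not pass either. On the same scale epiblast minus ICM was 1.77 and diapaused ICM minus epiblast was -2.55. With 0.1 added in place of 1, these values became 0.46 and -1.29, since Socs3 in epiblast lies well under the constant of 1, and the untransformed shares of epiblast and ICM overlapped.

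**Figure D2:**
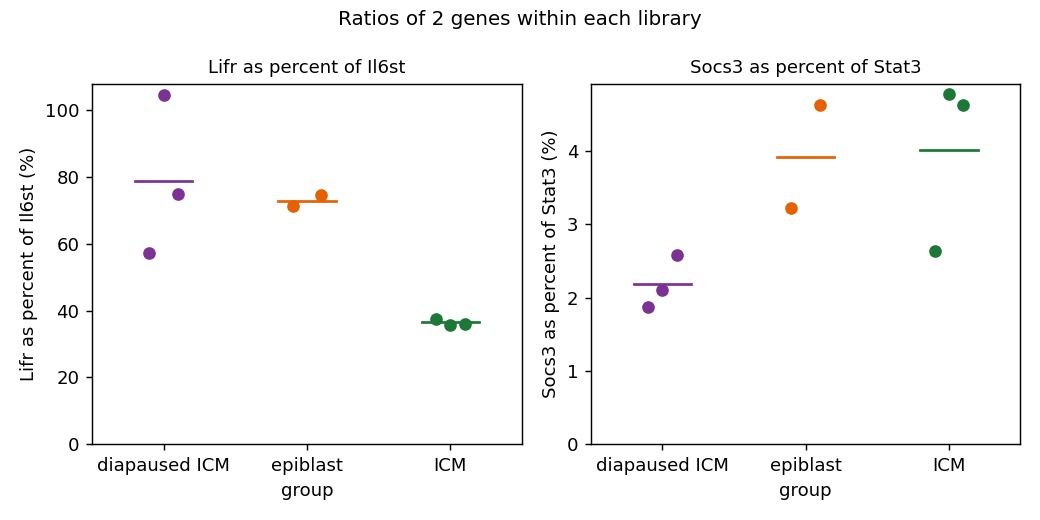
Lifr as a percent of Il6st (left) and Socs3 as a percent of Stat3 (right) in each library, with points for libraries and lines for group means. The ICM libraries lie at 35.8% to 37.5% on the left, under all others, and the diapaused ICM libraries lie at 1.87% to 2.58% on the right, under all others.

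Ptpn11, which encodes SHP2, passed in none of the 3 comparisons. It measured 4.72, 5.32 and 7.10 adjusted TPM in diapaused ICM, 8.38 and 6.54 in epiblast, and 7.88, 12.5 and 8.53 in ICM. All diapaused libraries lay below all ICM libraries, but the difference of -0.65 ± 0.24 on the log2 scale did not pass (adjusted p = 0.12, limma). Epiblast overlapped both other groups, with adjusted p of 0.41 against ICM and 0.35 for diapaused ICM against epiblast.

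In diapaused ICM against ICM, then, 1 of the 7 tested genes rose (Lifr) and 0 fell, where 13.3% of all tested genes passed, 7.52% higher and 5.81% lower. Higher values without overlap were found for Lifr and Stat3 and lower ones for Ptpn11, against 16.4% and 14.4% of all tested genes. In epiblast against ICM, 4 of 7 fell (Lifr, Il6st, Stat3 and Socs3) and 0 rose, where 30.1% of all tested genes passed and 13.3% fell. In that comparison 5 of 7 were lower without overlap, Jak1 included, against 25% of all tested genes, and 0 of 7 were higher without overlap, against 33.9%. In diapaused ICM against epiblast, the same 4 genes were higher and 0 were lower, where 34.5% of all tested genes passed and 16% were higher. There 5 of 7 were higher without overlap, against 27.3%, and 0 of 7 were lower without overlap, against 34.1%. The median log2 fold change of the 7 was 0.06 in diapaused ICM against ICM, -1.55 in epiblast against ICM and 1.42 in diapaused ICM against epiblast, beside medians over all tested genes of 0.0044, 0.14 and -0.11. The median of the 7 in diapaused ICM against ICM was -0.18 with libraries rescaled to a common sum and -0.23 with abundant genes left out, beside medians over all tested genes of -0.20 and -0.24 under the same rescalings. At an unadjusted limma p under 0.05, 2 of the 7 were higher and 1 lower in diapaused ICM against ICM, where 14.7% of all tested genes were higher and 12.6% lower. At that threshold 0 of 7 were higher and 5 lower in epiblast against ICM, beside 24.1% and 18% of all tested genes. For diapaused ICM against epiblast 5 of 7 were higher and 0 lower, beside 20.8% and 25.2%. The comparisons share libraries, so the fall in epiblast enters the second and the third of them. In pools of embryos, fewer cells of a type and less RNA per cell cannot be told apart.

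**Figure D3:**
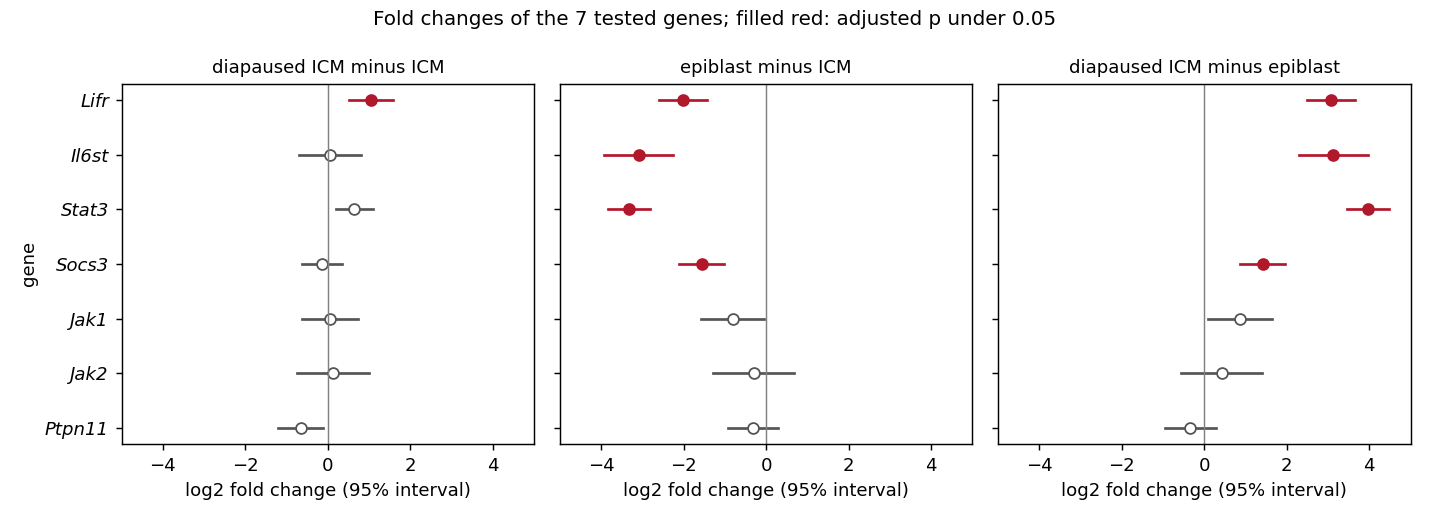
Log2 fold change with its 95% interval (horizontal axis) for the 7 tested genes in the 3 comparisons, with filled red points where the limma adjusted p was under 0.05. Lifr is the one filled point in diapaused ICM against ICM, at 1.05, and Lifr, Il6st, Stat3 and Socs3 are filled in both comparisons with epiblast.

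The rise of Lifr in diapaused ICM depended on the libraries and on the scaling. It did not pass without ICM replicate 1 (log2 fold change 1.09, adjusted p = 0.052, limma) or without diapaused ICM replicate 1 (0.93, adjusted p = 0.057). With libraries rescaled to a sum of 1000000 it was 0.79 and with abundant genes left out of the rescaling 0.73, both with an adjusted p of 0.072. Those rescalings lowered the median of all tested genes by 0.21 and 0.25, and relative to that median Lifr was 0.99 and 0.97 higher, against 1.05 as reported. Stat3 passed in that comparison under 3 alternatives, with an adjusted p of 0.04 without a filter, 0.044 with a minimum of 5 and 0.033 after quantile normalization. Its direction was the same in all 19 alternatives, and its adjusted p ranged up to 0.42.

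**Figure D4:**
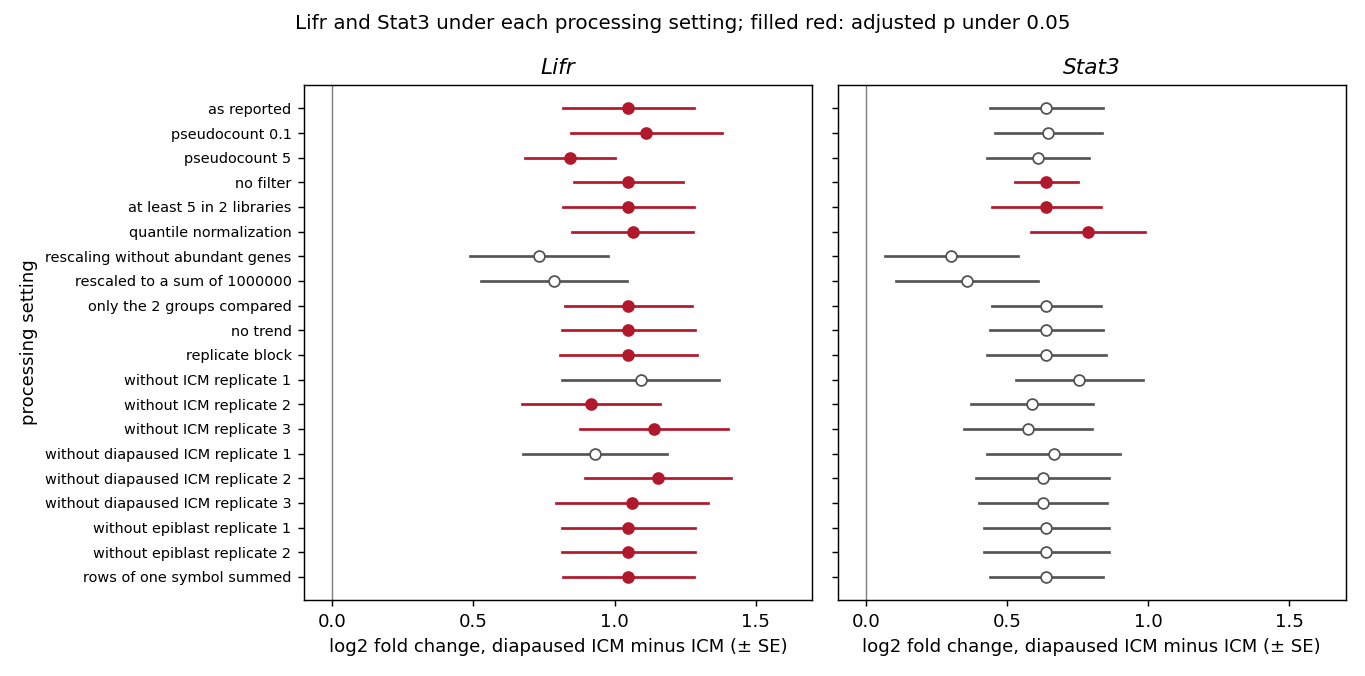
Log2 fold change of Lifr (left) and Stat3 (right) in diapaused ICM minus ICM, with its standard error as a bar, as reported and under each of 19 alternative settings, filled red where the adjusted p was under 0.05. Lifr passed in 15 of 19 alternatives and Stat3 in 3, and every value was above 0.

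Markers of other cells moved between the same groups. Of the 10 primitive endoderm markers, 6 rose in diapaused ICM against ICM and Gata6 fell, and their summed level was 240 to 381 in diapaused ICM, 16.8 to 28.5 in epiblast and 68.6 to 85.2 in ICM. Over all tested genes, 7.52% rose and 5.81% fell in diapaused ICM against ICM. In epiblast, Gata4, Gata6, Sox17, Sox7, Pdgfra, Foxa2 and Lama1 were under 1 in every library, and in ICM Foxa2 was. Visceral endoderm markers summed to 574 to 589 in diapaused ICM, 304 to 416 in epiblast and 28.6 to 41.7 in ICM, with 3 of 6 tested markers higher and 1 lower in diapaused ICM against ICM, and with Afp, Ttr, Amn, Cer1 and Hhex under 1 in diapaused ICM. A single gene, Rhox5, carried most of these sums, and the other 9 markers summed to 19.6 to 23.0 in diapaused ICM, 19.8 to 62.6 in epiblast and 7.45 to 13.6 in ICM. Blood and immune markers summed to 48.5 to 133.9 in diapaused ICM, 2.43 to 4.08 in epiblast and 5.53 to 10.1 in ICM. Both tested ones, Cd68 and Laptm5, rose in diapaused ICM, while Ptprc, Tyrobp, Lyz2, Csf1r, Hbb-bt and Cd74 were under 1 in all 8 libraries. The haemoglobin genes Hba-a1 and Hba-a2 reached 3.30 and 3.48 in diapaused ICM replicate 2 and were under 1 in every other library. Trophectoderm markers summed to 57.7 to 191 in diapaused ICM, 59.9 to 67.9 in epiblast and 48.3 to 69.4 in ICM, with 1 of 9 tested higher and 1 lower in diapaused ICM against ICM. Diapaused ICM replicate 3 stood apart at 191, with Krt18 at 120.8, and the other two diapaused libraries summed to 57.7 and 59.6. Without that replicate the adjusted p for diapaused ICM against ICM was 0.045 for Lifr and 0.13 for Stat3 by limma. The part of these cells in the values of Lifr, Stat3, Il6st and Socs3 was not tested.

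Other receptor chains of the family were few. Of 5 listed, Osmr, Cntfr and Il27ra were under 1 in every library, Osmr reaching 0.035. Il11ra1, which pairs with gp130 to receive interleukin-11, measured 11.2, 11.5 and 13.9 adjusted TPM in diapaused ICM, was at or near 0 in both epiblast libraries, the higher at 0.0772, and measured 1.51, 21.0 and 11.6 in ICM. It was higher in diapaused ICM than in epiblast by 3.67 ± 0.73 on the log2 scale (adjusted p = 0.0057, limma) and fell in epiblast against ICM by 3.09 ± 0.73 (adjusted p = 0.014). Il6ra, the interleukin-6 receptor, averaged 0.0295 ± 0.00936 in epiblast (SD, n = 2) and 2.05 ± 0.457 in ICM (SD, n = 3) and also fell (-1.56 ± 0.33, adjusted p = 0.0088). Il6ra did not reach 1 in epiblast and entered the test through the groups where it is higher. Over all tested genes, 13.3% fell in epiblast against ICM, and 16% were higher in diapaused ICM than in epiblast. Both falls against ICM lost their call when either epiblast library was left out, with adjusted p of 0.057 to 0.084. Neither receptor passed in diapaused ICM against ICM. Il6ra had 0.115, 1.13 and 0.542 in diapaused ICM, below all ICM libraries, with a log2 fold change of -0.97 ± 0.30 (adjusted p = 0.062, limma). Lower values without overlap were found there for 14.4% of all tested genes. For Il11ra1 these groups overlapped (adjusted p = 0.64, limma).

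Among the 8 other JAK and STAT genes, 3 were tested and 0 passed in any comparison by limma, with 1 higher at an unadjusted p under 0.05 in diapaused ICM against ICM and 0 in the other comparisons. At that unadjusted threshold 14.7% of all tested genes were higher in diapaused ICM against ICM. Stat5a, which lies next to Stat3 on chromosome 11 and overlaps it on the opposite strand in the GENCODE M21 annotation, reached at most 0.599, and Tyk2 0.959. Stat5b exceeded 1, at 1.73 in diapaused ICM replicate 1, but was not tested. Jak1 overlaps Raver2 on the opposite strand, and whether strand entered the counting was not stated in the labels. Raver2 reached at most 1.38. Jak1 also overlaps the small nuclear RNA gene Gm24468 on the opposite strand, which reached 4.23. On the same strand it overlaps the processed pseudogene Gm12785, which reached 1.29. Whether reads were shared with Jak1 was not tested.

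Of the 14 other negative regulators of the pathway, 12 were tested. In diapaused ICM against ICM 1 rose and 1 fell, where 7.52% of all tested genes rose and 5.81% fell. In diapaused ICM against ICM, Pias1, a SUMO ligase of the family that inhibits STAT factors, rose with 7.53 ± 1.11 in diapaused ICM and 3.45 ± 1.27 in ICM (SD, n = 3 each; log2 fold change 0.97 ± 0.24, adjusted p = 0.029, limma). Ptpn6, the phosphatase SHP1, fell with 5.35 ± 2.46 in diapaused ICM and 12.6 ± 0.854 in ICM (-1.17 ± 0.30, adjusted p = 0.031). Each of these calls was lost on leaving out any of 5 libraries, with adjusted p of up to 0.099 for Pias1 and 0.089 for Ptpn6, and that of Pias1 was also lost under both rescalings, at 0.087 and 0.089. Ptpn2, a phosphatase of JAK1 and STAT3, had 27.97 and 28.1 in epiblast against 14.2, 10.2 and 16.7 in ICM and rose (1.01 ± 0.26, adjusted p = 0.020), and it was lower in diapaused ICM than in epiblast (-1.44 ± 0.26, adjusted p = 0.0037). Pias2 fell in epiblast against ICM (-1.40 ± 0.33, adjusted p = 0.014), with 6.47 and 8.12 in epiblast and 27.5, 16.6 and 19.7 in ICM. Without epiblast replicate 1 the rise of Ptpn2 and the fall of Pias2 each had an adjusted p of 0.11, and without epiblast replicate 2 they had 0.096 and 0.052. With libraries rescaled to a common sum the rise of Ptpn2 had 0.078. In diapaused ICM against epiblast Pias1 was higher (1.15 ± 0.27, adjusted p = 0.011), a call lost without epiblast replicate 1 (0.076) or replicate 2 (0.052). Pias2 was higher there too (1.07 ± 0.33, adjusted p = 0.035), and lost its call without either epiblast library or without diapaused ICM replicate 1 or 3, at adjusted p of 0.065 to 0.18. Socs2 had levels of 8.04 to 12.1 in diapaused ICM, 14.1 to 20.9 in epiblast and 9.49 to 14.2 in ICM, and did not pass.

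A list of genes reported as targets of LIF and STAT3 in mouse embryonic stem cells was examined next. Of 10 listed, 8 were tested, and 4 fell (Klf4, Klf5, Tfcp2l1 and Bcl3) and 1 rose (Mcl1) in epiblast against ICM. Over all tested genes, 13.3% fell and 16.7% rose in that comparison. Klf4, a pluripotency factor, had 24.0, 38.4 and 36.3 in diapaused ICM, 0.930 and 0.509 in epiblast, and 22.0, 15.5 and 22.1 in ICM. Klf5, a related factor, had 154, 119 and 166 in diapaused ICM, 2.39 and 1.40 in epiblast, and 110, 67.9 and 134 in ICM. Tfcp2l1, a self-renewal factor of naive stem cells, had 69.3, 55.7 and 58.0 in diapaused ICM, 0.756 and 0.707 in epiblast, and 67.7, 56.3 and 71.1 in ICM. All 3 were lower in epiblast than in every other library, as Stat3 was. Their log2 fold changes in epiblast against ICM were -3.59 ± 0.29 for Klf4, -5.15 ± 0.33 for Klf5 and -5.25 ± 0.23 for Tfcp2l1, with adjusted p of at most 5.8e-05 by limma, and they were higher in diapaused ICM than in epiblast with adjusted p of at most 3.4e-05. None of the 3 passed in diapaused ICM against ICM, where the adjusted p was 0.12 for Klf4, 0.29 for Klf5 and 0.83 for Tfcp2l1. At an unadjusted limma p under 0.05, 4 of the 8 tested targets were higher there and 0 lower. Over all tested genes, 14.7% were higher and 12.6% lower at that threshold. The median log2 fold change of the 8 was 0.61, beside 0.0044 over all tested genes. Pim3, a kinase, was the 1 target that passed there after adjustment, where 7.52% of all tested genes rose and 5.81% fell. Its level was 2.93 ± 0.747 in diapaused ICM and 1.02 ± 0.0783 in ICM (0.94 ± 0.26, adjusted p = 0.045, limma). Pim3 lost its call on leaving out any of 5 libraries, with adjusted p of up to 0.13, and under all 3 other scalings. Mcl1, a survival factor, had 70.8 and 33.1 in epiblast against 14.0, 11.6 and 21.8 in ICM (1.60 ± 0.40, adjusted p = 0.017), a call lost without epiblast replicate 1 (0.15). Bcl3 was lower in epiblast than in ICM by 1.21 on the log2 scale (adjusted p = 0.033), a call lost without any 1 of the 5 libraries of these groups, at adjusted p of 0.057 to 0.17. Gbx2 was at most 0.116 in every library.

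Of the 15 adaptors and kinases that lead from SHP2 to ERK, 14 were tested and 0 passed in diapaused ICM against ICM by limma, with 3 higher and 2 lower at an unadjusted p under 0.05. At that unadjusted threshold 14.7% of all tested genes were higher and 12.6% lower. In epiblast against ICM 3 fell (Map2k2, Gab1 and Sos2) and 0 rose, where 13.3% of all tested genes fell and 16.7% rose. In diapaused ICM against epiblast 4 were higher (the same 3 and Nras) and 4 lower, among them Hras and Map2k1. Over all tested genes, 16% were higher and 18.6% lower there. The call of Map2k1 was lost under 10 of 18 alternatives, that of Nras under 7 of 19 and that of Hras under 3 of 19. For each gene these included the fit without epiblast replicate 1. The log2 fold changes in that fit were -0.58 for Map2k1, 0.74 for Nras and -2.21 for Hras. Map2k2, the kinase MEK2, had 15.5, 11.9 and 15.3 in diapaused ICM, 5.49 and 5.16 in epiblast, and 14.3, 14.9 and 13.5 in ICM, and fell in epiblast against ICM by 1.27 ± 0.22 on the log2 scale (adjusted p = 0.0033, limma). Gab1, the docking protein that SHP2 binds, had 18.6, 17.6 and 35.1 in diapaused ICM, 5.02 and 4.67 in epiblast, and 14.3, 8.21 and 17.8 in ICM. Gab1 fell in epiblast against ICM (-1.24 ± 0.38, adjusted p = 0.037), a call lost without either epiblast library or without ICM replicate 1 or 3, at adjusted p of 0.091 to 0.15. It was higher in diapaused ICM than in epiblast by 2.02 ± 0.38 (adjusted p = 0.0044), as was Sos2, an exchange factor of Ras (2.24 ± 0.38, adjusted p = 0.0026). The fall of Sos2 in epiblast against ICM had an adjusted p of 0.038 and was lost without any 1 of the 5 libraries of these groups, at 0.063 to 0.17. The adaptors Grb2 (adjusted p of 0.053, 0.37 and 0.19 in diapaused ICM against ICM, epiblast against ICM and diapaused ICM against epiblast) and Shc1 (0.78, 0.44 and 0.67) did not pass.

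**Figure D5:**
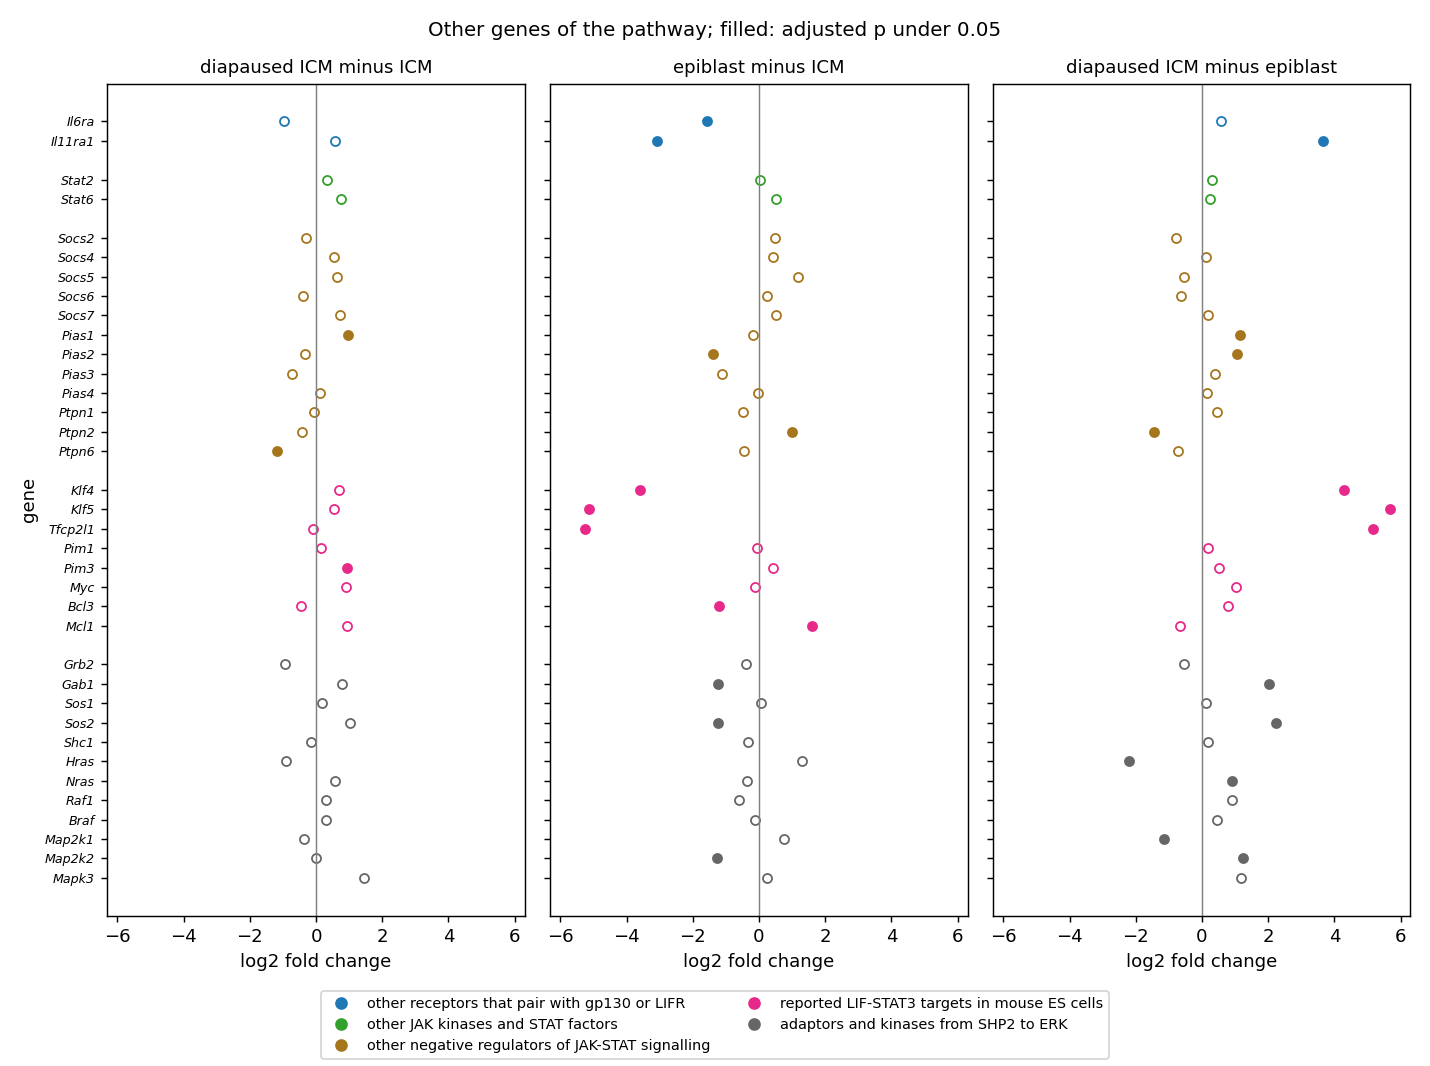
Log2 fold changes (horizontal axis) of tested genes of the pathway other than the 8, coloured by list, in the 3 comparisons, with filled points where the limma adjusted p was under 0.05. Pias1, Pim3 and Ptpn6 are the filled points in diapaused ICM against ICM, and Klf4, Klf5 and Tfcp2l1 lie farthest from 0 in both comparisons with epiblast.

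The genes with the most similar profile were sought among 5575 candidates with a mean of at least 5 adjusted TPM and no provisional symbol, by the root mean square difference of log2(value + 1) over the 8 libraries, each gene centred on the mean of its group means. For Lifr these were P4ha2 (0.141), Wwtr1 (0.175) and B4galt6 (0.179). P4ha2, a collagen prolyl hydroxylase, averaged 50.5 ± 15.0 in diapaused ICM, 4.76 ± 0.682 in epiblast and 20.6 ± 2.49 in ICM. For Stat3 they were Arid5b (0.160), Cpt1a (0.182) and the processed copy Cd63-ps (0.204), whose reads may be shared with its parent gene. Cpt1a, which brings fatty acids into mitochondria for oxidation, averaged 22.0 ± 3.43 in diapaused ICM, 0.563 ± 0.0137 in epiblast and 12.3 ± 0.801 in ICM. For Il6st they were Wdr45 (0.260), Ap3b1 (0.302) and Pramel7 (0.306), and for Socs3 Ncor1 (0.0951), Zyg11b (0.102) and Atxn7l1 (0.127). Pramel7 averaged 21.2 ± 13.2 in diapaused ICM, 0.654 ± 0.0926 in epiblast and 17.0 ± 3.47 in ICM. These likenesses describe 8 libraries in 3 groups and hold on the log2(value + 1) scale, which compresses the range of a low gene such as Socs3. On the untransformed scale epiblast had 8.71% of the ICM level of Socs3, whereas it had 33.9% of that of Ncor1, 32.0% of that of Zyg11b and 30.9% of that of Atxn7l1.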

How the data were processed

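Each deposited value is a signal for 1 gene in 1 library, named adjusted TPM by the authors in the column headers, and the adjustment itself was not described there. Library sums differ, and the values were therefore treated as a signal, although TPM had been assumed when the tests were set, and the planned test was kept. The submitters' processing notes list Bowtie 0.12.5, DESeq and build mm9 but no roles. Strand use, annotation and read totals were not stated in these sources, so no counting interval is printed.

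Genes at 1 or more in at least 2 libraries were tested on log2(value + 1), on which the change of low genes is understated. limma 3.58.1 in R 4.3.3 fitted all 8 libraries with a mean per group (residual degrees of freedom 5, prior 3.97, trended prior variance). Tests were two-sided, with Benjamini-Hochberg adjustment over 17698 genes and a threshold of 0.05. The script was tested on simulated data. SEs are those of the fit. The labels call the libraries biological triplicates and duplicates. P-values measure the spread between these pools.

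The genes and lists were chosen with earlier results of these data known. Named from the other lists were genes that passed in diapaused ICM against ICM (up to 4 a list), up to 2 by smallest adjusted p in each other comparison, and a set given whatever its values (Klf4, Klf5, Tfcp2l1, Gbx2, Stat5a, Stat5b, Tyk2, Osmr, Socs2, Grb2, Gab1 and Shc1). Values of some genes of these lists are not reported here, and the counts include them. Other names illustrate counts of a list and were chosen after their values were seen. Decidual and uterine markers, 8 genes of which 2 were tested, had 0 past the threshold in each comparison by limma, with 1 lower at an unadjusted p under 0.05 in epiblast against ICM. Alternatives covered the pseudocount, the filter, the scaling, the libraries in the fit, the prior variance, a replicate block, repeated symbols and leaving out each library. They were applied to the other pathway genes after seeing the data.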

Additional observations from a re-analysis of the deposited data

How the results depend on the processing

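Over 19 alternatives and 387 values of the 7 tested genes, 378 kept their side of the threshold, 4 lost a call, 5 gained one and 0 calls reversed. Lifr, Il6st and Stat3 kept their calls in both comparisons with epiblast under every alternative, and Socs3 under all but the filter at 5, which it did not pass. In diapaused ICM against ICM, 2360 genes passed and 1278 did without a filter, when more genes were tested. The members that passed there numbered 2 without a filter, with the filter at 5 and after quantile normalization, and 0 under both rescalings; the cause was not tested. Rescaling also moved the split of calls there, which was 1331 higher and 1029 lower as reported, 862 and 1480 at a common sum, and 846 and 1768 without abundant genes. In epiblast against ICM it was 2963 higher and 2361 lower as reported, 1537 and 2747 at a common sum, and 1856 and 2677 without abundant genes.

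Leaving out each library gave 1404 to 2148 genes and 0 to 1 members for diapaused ICM against ICM, the fewest genes without ICM replicate 1. It gave 1788 to 5257 genes and 4 to 5 members for epiblast against ICM, and 2539 to 6351 genes and 4 to 5 members for diapaused ICM against epiblast. The fewest came without epiblast replicate 1, when the lone library left is assumed to vary like the others; without epiblast replicate 2 they were 2618 and 3196. Of 30 called values of other pathway genes, 12 kept their call under every alternative and 18 lost it under at least 1, with 0 reversed. Same-numbered libraries of diapaused ICM and ICM correlated at 0.017, 0.10 and 0.13, and differently numbered ones at -0.15 to 0.033. The values of 0.10 and 0.13 thus lay above all differently numbered pairs. These few correlations do not settle whether the numbers pair the libraries, and the reported fit did not pair them. With the replicate block, 2004 genes passed in diapaused ICM against ICM, 4475 in epiblast against ICM and 5314 in diapaused ICM against epiblast, with 1, 4 and 4 of the members. The 2 epiblast libraries, the unknown depth, levels under 1 for Lif and levels of at most 1.50 for Jak2 limit what these data resolve.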
